A study of Mus musculus with 2 samples.

Results

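The cells described here are cultured mouse blood stem cells caught at the G1/S boundary, the step at which a cell commits to copying its DNA. They were chosen by expression. For each cell of both libraries, the mean deposited natural log value of 3 replication-dependent histone genes (Hist1h1a, Hist1h1b, Hist1h2ae) was subtracted from the mean of 6 genes of late G1 and early S phase (Ung, Ccne2, Cdc6, Gins2, Mcm5, Mcm6). The top 10% of the pooled cells by this score form the G1/S set, which holds 1856 of 18560 cells. Of these, 846 came from the vehicle library of 8708 cells and 1010 from the DFO library of 9852 cells.

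Wild-type C57/B6 mice of 6 to 8 weeks were the donors, and marrow from 8 of them was pooled. Stem cells were sorted by surface markers (Lin-, Sca-1+, c-Kit+, CD150+, CD48-) and grown in Myelocult M5300 medium with stem cell factor at 100 ng/ml, thrombopoietin at 50 ng/ml and Primocin at 200 µg/ml. One culture then received deferoxamine (DFO), an iron chelator, at 10 µM and the other sterile water as vehicle, each for 48 h. Some 20000 cells of each culture were loaded on the 10x Genomics 3′ v3 platform, and the series asks how the transcriptomes of the treated and untreated cells compare. Whether both cultures were seeded from the same sort is not stated for each library. Both groups share strain, sort markers, medium and cytokines, and each is 1 library. No difference between them therefore has a replicate check, no p-value is given, and the treatment cannot be told apart from the library.

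Cells in G1 load the MCM helicase onto replication origins through the origin recognition complex, Cdc6 and Cdt1, a step called licensing. Rising cyclin D and cyclin E kinase activity frees E2F transcription factors from the retinoblastoma protein, and E2F then drives the genes of licensing, DNA synthesis and nucleotide supply. Transcripts of the clustered histone genes accumulate once DNA synthesis is under way, and those of mitotic regulators later still, so a cell with many E2F target transcripts and few histone ones lies near the start of S phase. Blood stem cells are mostly quiescent in marrow and enter the cycle when cultured with stem cell factor and thrombopoietin. Iron matters at this step because ribonucleotide reductase, which makes the building blocks of DNA, holds an iron centre in its Rrm2 subunit, and several DNA polymerases, primases and repair enzymes hold iron as well.

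The promoters below are examples of the letters that were counted over all genes. They were picked because most of them hold a match, and other genes of both kinds, such as E2f1, Ccne1 and Cdt1 or Plk1, Ccnb1 and Nusap1, lack the E2F-type or the mitotic letters in this window. They are the 250 bases before the RefSeq start of 5 genes that were high in the set and of 2 mitotic genes that were low in it, in build GRCm38.p6, each printed 5′ to 3′ on the strand of the gene. Their positions are Cdc6 chr11:98907901-98908150 (plus strand), Mcm5 chr8:75109259-75109508 (plus strand), Mcm6 chr1:128359706-128359955 (minus strand), Dtl chr1:191575545-191575794 (minus strand), Ung chr5:114130185-114130434 (plus strand), Ube2c chr2:164769679-164769928 (plus strand) and Cdc20 chr4:118437344-118437593 (minus strand). Capitals mark matches, on either strand, to E2F-type letters (TTTCCCGC, TTTGGCGC, TTTCGCGC or TTTGCCGC), to letters like the cell cycle homology region of mitotic promoters (TTTGAA or TTCGAA), or to CCAAT.
Cdc6: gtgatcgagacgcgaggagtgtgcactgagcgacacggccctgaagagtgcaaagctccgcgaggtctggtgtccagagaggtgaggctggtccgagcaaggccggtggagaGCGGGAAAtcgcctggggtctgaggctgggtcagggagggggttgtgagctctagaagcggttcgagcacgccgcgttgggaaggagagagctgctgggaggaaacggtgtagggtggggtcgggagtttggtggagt
Mcm5: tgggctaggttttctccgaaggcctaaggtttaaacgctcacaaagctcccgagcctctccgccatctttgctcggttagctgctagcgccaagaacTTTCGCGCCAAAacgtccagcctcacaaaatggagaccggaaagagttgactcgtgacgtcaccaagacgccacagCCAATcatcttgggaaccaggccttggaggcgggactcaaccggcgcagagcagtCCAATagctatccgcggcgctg
Mcm6: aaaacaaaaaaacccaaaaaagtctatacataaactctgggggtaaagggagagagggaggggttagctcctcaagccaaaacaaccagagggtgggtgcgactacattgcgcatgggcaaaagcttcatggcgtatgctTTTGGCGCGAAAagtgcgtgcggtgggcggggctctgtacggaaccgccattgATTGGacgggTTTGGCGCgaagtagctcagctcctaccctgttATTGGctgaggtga
Dtl: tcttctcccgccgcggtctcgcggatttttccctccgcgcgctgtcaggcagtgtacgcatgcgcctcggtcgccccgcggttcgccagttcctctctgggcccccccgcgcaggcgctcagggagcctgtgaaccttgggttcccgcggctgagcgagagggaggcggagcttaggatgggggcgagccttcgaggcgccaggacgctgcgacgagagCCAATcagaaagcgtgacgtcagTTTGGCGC
Ung: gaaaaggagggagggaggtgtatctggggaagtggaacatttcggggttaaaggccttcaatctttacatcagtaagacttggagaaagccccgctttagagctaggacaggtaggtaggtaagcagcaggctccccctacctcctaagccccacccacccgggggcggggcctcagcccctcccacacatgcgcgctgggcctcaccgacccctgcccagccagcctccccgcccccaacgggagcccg
Ube2c: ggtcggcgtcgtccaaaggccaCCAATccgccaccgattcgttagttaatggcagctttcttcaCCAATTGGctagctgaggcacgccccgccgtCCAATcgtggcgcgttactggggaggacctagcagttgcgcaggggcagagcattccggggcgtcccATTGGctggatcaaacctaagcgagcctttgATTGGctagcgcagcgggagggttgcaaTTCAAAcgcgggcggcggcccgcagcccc
Cdc20: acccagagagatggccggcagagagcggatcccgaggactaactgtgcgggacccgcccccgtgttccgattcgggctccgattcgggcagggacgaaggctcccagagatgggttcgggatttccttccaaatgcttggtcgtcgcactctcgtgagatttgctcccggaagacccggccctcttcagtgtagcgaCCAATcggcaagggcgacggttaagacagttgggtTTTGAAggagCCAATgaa
Mcm5 and Mcm6, which encode subunits of the MCM helicase ring, each hold the same 12 bases on opposite strands: TTTCGCGCCAAA in Mcm5 and its reverse complement TTTGGCGCGAAA in Mcm6, where E2F-type matches on both strands overlap. Mcm6 has a further E2F-type match from -47 to -40, counted from the base before the start as -1. In Cdc6 the match TTTCCCGC lies on the other strand from -138 to -131, and in Dtl the match TTTGGCGC ends at -1. Ung holds none of the searched letters in this window. Ube2c and Cdc20 hold no E2F-type match, and each has TTTGAA close to the start (from -29 to -24 on the other strand in Ube2c, from -18 to -13 in Cdc20) together with CCAAT. A match is a description of letters and not of binding.

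Among genes described below as higher in the set by log2 0.5 or more in both libraries, 24 of the 27 outside the rule matched a RefSeq promoter, and 7 of those (29.2%) held an E2F-type match. Of the 169 lower genes outside the rule, 133 had a promoter and 5 (3.76%) held one. The share was 4.59% over the 5928 matched genes that passed the expression minimum and 1.86% over all 32851 promoter windows of this length. The letters TTTGAA or TTCGAA were found in 36.8% of the lower genes and 12.5% of the higher ones, against 14.9% of matched genes past the minimum and 17.1% of all windows. CCAAT stood in 63.2% of the lower and 50.0% of the higher genes, against 40.7% and 33.8%. Over the fixed list of 53 mitosis genes, of which 46 matched a promoter, 43.5% held the cell cycle homology letters, 78.3% held CCAAT and 6.52% held an E2F-type match.

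The score had 2 broad modes in both libraries and the G1/S set is the upper edge of the right one, with no gap at the threshold. The last member scored 1.0261 and the first cell outside 1.0259. The 100 members just inside had a mean natural log value of 1.22 over the 6 early genes and 0.183 over the 3 histone genes, and the 100 cells just outside had 1.19 and 0.169. Over all members these means were 1.36 and 0.120, against 0.853 and 0.928 in the other cells. No molecule of any of the 3 histone genes was found in 60.9% of members and in 16.4% of other cells. These values chose the members and are given as a description. The set is a range of the score and not a separate type of cell.

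**Figure D1:**
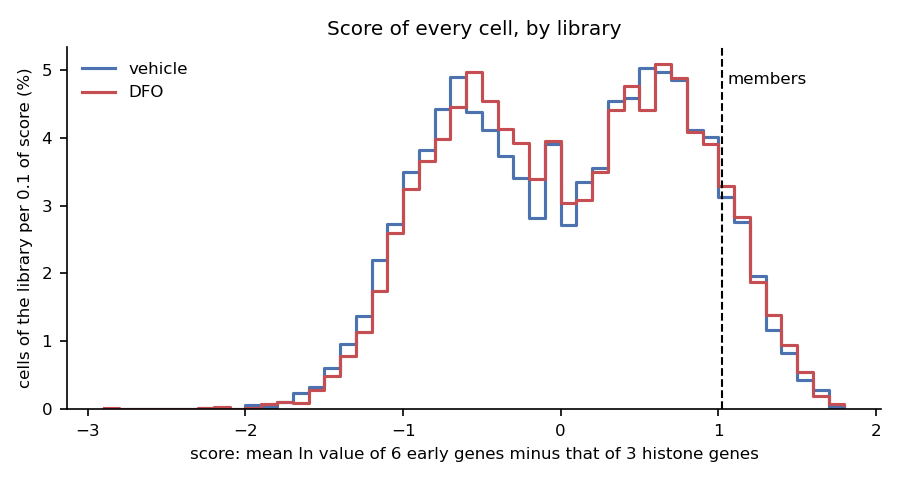
The percentage of each library's cells (vertical axis) per 0.1 of the score (horizontal axis, natural log units) is drawn for vehicle in blue and DFO in red, and the dashed line is the threshold at 1.0261. The 2 libraries follow each other closely, and the members to the right of the line are the upper edge of a broad mode.

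Members held fewer molecules than the other cells. Their median was 23048.5 unique molecular identifiers (UMIs) in vehicle and 22696.5 in DFO, against 28743 and 27964 in the other cells, and the members' molecules summed to 20192159 and 23301644. At an equal depth of 10000 UMIs per cell the gap in genes was small, with medians of 3023 and 3039 genes in members and 3058 and 3083 in the other cells, with 17 vehicle and 28 DFO members left out as shallower. Mitochondrially encoded transcripts took a median of 3.98% and 4.49% of a member's UMIs and 3.87% and 4.38% of another cell's. The libraries share 24 cell barcodes by sequence, of which 2 belong to vehicle members and 0 to DFO members. Summed counts were also taken after thinning each cell to 10000 UMIs, and several of those values stand beside the results below.

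For comparison, 2 neighbouring sets of the same size were drawn from the same cells. Histone-rich cells are the top 10% by the mean of the 3 histone genes, and mitotic cells are the top 10% by the mean of 6 mitotic genes (Nusap1, Ube2c, Cdc20, Plk1, Ccnb1, Cenpf). No member was histone-rich, and 1 vehicle and 1 DFO member were also mitotic by this rule. The median UMIs were 30486 and 29232 in histone-rich cells and 37518 and 35955 in mitotic cells. The remaining 13070 cells are called the rest.

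Ung, which removes uracil from newly made DNA, gave the clearest contrast among the 6 early genes that the rule used. It stood at 132 CPM (95% Poisson interval 127 to 137) in vehicle members and 131 CPM (126 to 136) in DFO members, where CPM is the gene's molecules per 1000000 molecules of the summed cells and the interval covers counting error only. The other cells had 32.6 and 38.0 CPM, histone-rich cells 28.6 and 34.3, and mitotic cells 1.79 and 2.16. With each cell thinned to 10000 UMIs, 74.1% of vehicle and 71.5% of DFO members held an Ung molecule, against 24.5% and 28.4% of other cells and 1.89% and 1.91% of mitotic cells. Without thinning the shares were 95.5% and 93.9% of members and 6.49% and 6.76% of mitotic cells. Whether free RNA was a source of the Ung molecules in mitotic cells was not tested.

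Ccne2, which encodes cyclin E2, the partner of the kinase Cdk2 at S phase entry, stood at 58.7 CPM in vehicle members and 62.7 CPM in DFO members, against 22.5 and 26.0 CPM in the other cells (log2 1.35 and 1.24). Here and below the log2 difference is log2((CPM + 1)/(CPM + 1)), members over other cells, first in vehicle and then in DFO. Cdc6, the loader of the MCM helicase, stood at 58.5 CPM in vehicle members and 64.5 CPM in DFO members, against 22.2 and 23.7 CPM in the other cells (log2 1.36 and 1.41). Gins2, a subunit of the GINS complex of the active helicase, stood at 77.3 CPM in vehicle members and 72.01 CPM in DFO members, against 45.9 and 47.4 CPM in the other cells (log2 0.74 and 0.59). The helicase subunit Mcm5 was at 203 CPM in vehicle members and 197 CPM in DFO members, against 128 and 134 CPM in the other cells (log2 0.66 and 0.55), and Mcm6 at 365 CPM in vehicle members and 357 CPM in DFO members, against 226 and 242 CPM in the other cells (log2 0.69 and 0.56). All 6 genes were higher in members than in the other 3 sets of cells in both libraries, as the rule requires on average, with the smallest difference for Mcm5.

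On the other side of the rule, the linker histone gene Hist1h1b stood at 19.4 CPM in vehicle members and 17.4 CPM in DFO members, against 299 and 285 CPM in the other cells (log2 -3.88 and -3.96), and at 702 and 668 CPM in histone-rich cells. Hist1h1a, another linker histone gene, stood at 2.43 CPM in vehicle members and 2.57 CPM in DFO members, against 25.2 and 25.4 CPM in the other cells (log2 -2.93 and -2.88), and the H2A gene Hist1h2ae at 3.17 CPM in vehicle members and 2.75 CPM in DFO members, against 71.6 and 75.6 CPM in the other cells (log2 -4.12 and -4.35). Members thus held few of these 3 transcripts in both libraries. When the histone genes were left out of the score, so that the 6 early genes alone chose the cells, Hist1h1a was slightly higher in the chosen cells than in the rest (log2 0.14 and 0.23).

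Beyond the rule's own 9 genes, members carried more transcripts of origin licensing, chromatin replication and cyclin E with E2F1, and far fewer mitotic transcripts, than the other cells of either library. Of 7407 genes at 10 CPM or more in members or other cells of both libraries, 33 (0.446%) were higher in members by log2 0.5 or more in both, the 6 early genes included, and 172 (2.32%) were lower. At log2 1 or more there were 3 higher (0.0405%) and 97 lower (1.31%). Over all these genes the median difference was -0.0235 in vehicle (SD over genes 0.287) and -0.0242 in DFO (SD 0.267). The share of genes above 0 was 43.3% in vehicle and 42.2% in DFO, beside which the counts for the lists below should be read. The cells were chosen on these libraries, so the comparison is a description.

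**Figure D2:**
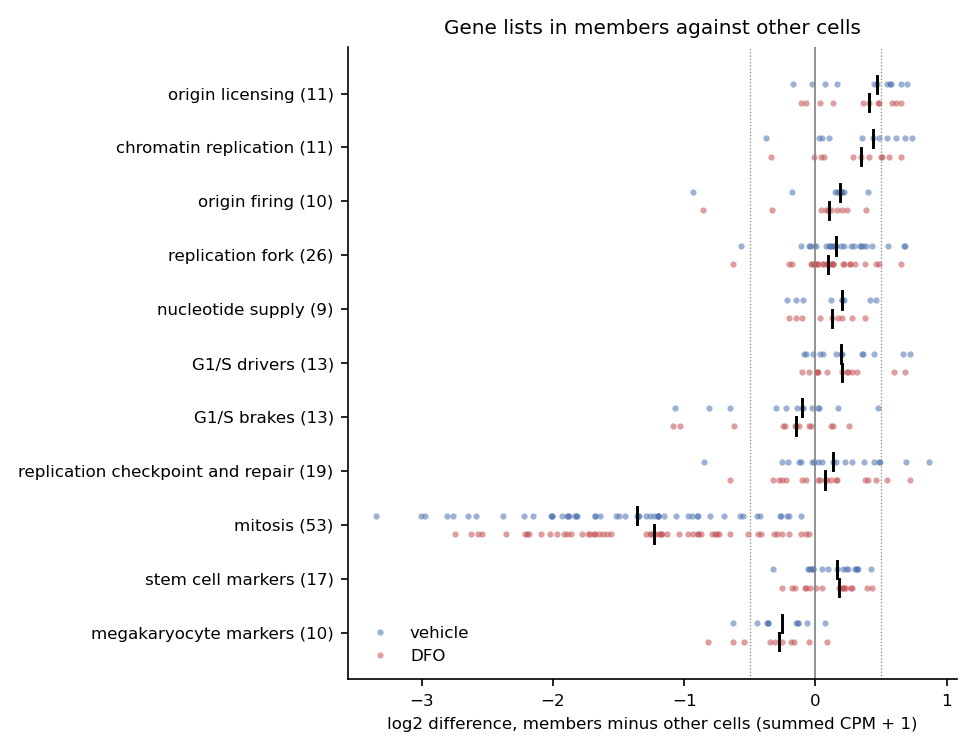
Each point is 1 gene of a fixed list, with the number of genes that entered in brackets, placed by its log2 difference between members and other cells in vehicle (blue) and DFO (red), and black bars are the list medians. Dotted lines mark log2 -0.5 and 0.5. The median of the mitosis list is -1.36 in vehicle and -1.23 in DFO, and that of origin licensing is 0.469 and 0.406.

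In the licensing list, 9 of 11 genes were higher in members in both libraries and 2 lower, with a median log2 of 0.469 in vehicle and 0.406 in DFO, and 3 were past 0.5 in both. Mcm4, a helicase subunit, stood at 195 CPM in vehicle members and 192 CPM in DFO members, against 119.7 and 125 CPM in the other cells (log2 0.70 and 0.61). Cdt1, which brings the helicase to origins with Cdc6, stood at 75.4 CPM in vehicle members and 81.4 CPM in DFO members, against 47.5 and 53.9 CPM in the other cells (log2 0.65 and 0.59). Orc1, the cell-cycle-regulated subunit of the origin recognition complex, stood at 16.3 CPM in vehicle members and 19.6 CPM in DFO members, against 10.9 and 12.1 CPM in the other cells (log2 0.54 and 0.65), and its counting intervals in vehicle were 14.6 to 18.2 in members and 10.46 to 11.3 in other cells. The helicase subunits Mcm2, Mcm3 and Mcm7 were also higher, with log2 0.58 and 0.48, 0.57 and 0.48, and 0.45 and 0.36. Orc6 was higher by 0.47 and 0.41, whereas Orc2, Orc3, Orc4 and Orc5, which form the body of the complex, lay between -0.17 and 0.16.

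Regulators of S phase entry were divided into drivers and brakes. Of 13 drivers, 10 were higher and 2 lower in both libraries (medians 0.196 and 0.203). E2f1, the transcription factor of the pathway, stood at 53.9 CPM in vehicle members and 56.0 CPM in DFO members, against 32.3 and 34.4 CPM in the other cells (log2 0.72 and 0.69). Ccne1, which encodes cyclin E1, stood at 27.6 CPM in vehicle members and 27.7 CPM in DFO members, against 17.0 and 18.0 CPM in the other cells (log2 0.67 and 0.59), and at 2.20 and 2.89 CPM in mitotic cells. Cdc25a, the phosphatase that activates Cdk2, had 47.6 and 48.6 CPM in members and 37.1 and 41.1 in other cells. The cyclin D kinases Cdk4 and Cdk6 differed little between members and other cells (log2 0.06 and 0.01, and -0.08 and -0.10).

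Among the brakes, 9 of 13 genes were lower in members in both libraries and 3 higher (medians -0.0990 and -0.145). The largest gap was in Cdkn2d, an inhibitor of the cyclin D kinases, at 34.1 CPM in vehicle members and 28.0 CPM in DFO members, against 72.7 and 60.5 CPM in the other cells (log2 -1.07 and -1.08). Its relative Cdkn2c stood at 11.3 CPM in vehicle members and 12.2 CPM in DFO members, against 18.4 and 19.3 CPM in the other cells (log2 -0.65 and -0.62). Fbxo5, placed on this list although it holds back the anaphase-promoting complex and so also favours S phase, stood at 45.3 CPM in vehicle members and 40.8 CPM in DFO members, against 80.3 and 84.2 CPM in the other cells (log2 -0.81 and -1.03), and its highest level was in histone-rich cells, at 124 and 119.7 CPM. Cdkn1a, the p21 inhibitor of Cdk2, went the other way, at 66.2 CPM in vehicle members and 59.5 CPM in DFO members, against 47.3 and 49.8 CPM in the other cells (log2 0.47 and 0.25). With the 6 early genes alone as the score, the median of the brakes was 0.0204 in vehicle and 0.00102 in DFO, on the other side of 0.

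Genes that fire origins and run the fork differed less between members and other cells than those of licensing. Of 10 firing genes 8 were higher in both libraries (medians 0.186 and 0.107), and Dbf4, the activator of the origin-firing kinase Cdc7, was lower, at 42.6 CPM in vehicle members and 46.1 CPM in DFO members, against 82.1 and 84.4 CPM in the other cells (log2 -0.93 and -0.86). Mitotic cells had the highest Dbf4 level, 123 and 128 CPM. Summed over the firing list, members had 422 and 433 CPM, the other cells 417 and 440, and histone-rich cells 494 and 511. Of 26 fork genes, 19 were higher and 5 lower (medians 0.154 and 0.0987). Their sum was 2359 and 2392 CPM in members, 2021 and 2142 in the other cells, and 2378 and 2472 in histone-rich cells. Rfc3, a subunit of the clamp loader, stood at 86.5 CPM in vehicle members and 97.5 CPM in DFO members, against 53.5 and 61.6 CPM in the other cells (log2 0.68 and 0.65), and Rpa2, of the protein that coats single-stranded DNA, at 148 CPM in vehicle members and 145 CPM in DFO members, against 101 and 104 CPM in the other cells (log2 0.55 and 0.48). Pcna, the sliding clamp, stood at 111 CPM in vehicle members and 111 CPM in DFO members, against 87.1 and 92.5 CPM in the other cells (log2 0.34 and 0.27), and histone-rich cells held about as much (112 and 115 CPM). Pole2, a subunit of the leading strand polymerase, had 25.5 CPM in vehicle members but 20.6 CPM in DFO members, with 15.6 and 16.6 CPM in the other cells.

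For nucleotide supply, 6 of 9 genes were higher in members and 3 lower in both libraries (medians 0.201 and 0.125), and none was past 0.5. Rrm2, the iron-holding subunit of ribonucleotide reductase, stood at 143 CPM in vehicle members and 151 CPM in DFO members, against 124 and 139 CPM in the other cells (log2 0.20 and 0.12), below the 168 and 168 CPM of histone-rich cells. Its log2 was 0.83 and 0.69 with the 6 early genes alone as the score. Tyms, which makes thymidylate, Tk1, which salvages thymidine, and Rrm1, the large subunit of the reductase, were the 3 lower genes, with log2 -0.09 and -0.20, -0.21 and -0.15, and -0.14 and -0.10. All 4 of these genes, Rrm2 included, had their highest level of the 4 sets in histone-rich cells of both libraries, with Tyms at 244 and 265 CPM there and 171 and 180.0 CPM in members.

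Genes that restore chromatin behind the fork were higher in members in 9 of 11 cases in both libraries (medians 0.440 and 0.344). Hells, a chromatin remodeller that helps to maintain DNA methylation, stood at 158 CPM in vehicle members and 178 CPM in DFO members, against 94.4 and 113 CPM in the other cells (log2 0.74 and 0.65). Chaf1b, of the chromatin assembly factor that places new histones, stood at 95.3 CPM in vehicle members and 87.4 CPM in DFO members, against 59.1 and 61.3 CPM in the other cells (log2 0.68 and 0.50), and Uhrf1, which brings the maintenance methyltransferase to new DNA, at 129 CPM in vehicle members and 140.2 CPM in DFO members, against 84.0 and 98.9 CPM in the other cells (log2 0.62 and 0.50). Casp8ap2, which is needed for histone gene expression, stood at 111 CPM in vehicle members and 112 CPM in DFO members, against 76.1 and 75.6 CPM in the other cells (log2 0.54 and 0.56). Slbp, the protein that binds histone mRNA and allows its use, stood at 267 CPM in vehicle members and 279 CPM in DFO members, against 197 and 210.4 CPM in the other cells (log2 0.44 and 0.41). Members were thus high in Slbp and Casp8ap2 while nearly without the histone transcripts themselves, whose absence the rule required. Asf1b, a histone chaperone, was lower in members, at 49.6 CPM in vehicle members and 51.6 CPM in DFO members, against 64.8 and 65.7 CPM in the other cells (log2 -0.38 and -0.34).

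In the checkpoint and repair list 12 of 19 genes were higher and 7 lower in both libraries (medians 0.130 and 0.0738). These medians were 0.567 and 0.514 with the 6 early genes alone as the score. Summed over the list, histone-rich cells had more than members, at 1116.5 and 1133 CPM against 1023 and 1004. The other cells had 885 and 911 CPM. Dtl, the part of a ubiquitin ligase that destroys Cdt1 at the fork, stood at 95.4 CPM in vehicle members and 94.0 CPM in DFO members, against 51.9 and 56.8 CPM in the other cells (log2 0.87 and 0.72). Chek1, the checkpoint kinase that answers stalled forks, stood at 38.1 CPM in vehicle members and 39.2 CPM in DFO members, against 23.3 and 26.6 CPM in the other cells (log2 0.69 and 0.54). The mismatch repair gene Msh6 was higher, with log2 0.49 and 0.46. Brip1 and Fancd2, which act at crosslinked DNA, were lower: Brip1 had log2 -0.25 and -0.28, and Fancd2, at the low level of 5.45 and 6.61 CPM in members, -0.85 and -0.65.

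Of the genes higher in the set and outside the rule, the one with the largest difference was Alkbh2, an iron-dependent enzyme that removes alkyl groups from DNA bases, at 16.9 CPM in vehicle members and 13.6 CPM in DFO members, against 7.02 and 6.75 CPM in the other cells (log2 1.16 and 0.91). It was found in 268 of 846 vehicle and 275 of 1010 DFO members without thinning. The next were the uncharacterised Gm45051 (log2 0.72 and 0.73), Dtl, Tmem121 (0.97 and 0.72), the H2B gene Hist1h2bc (0.70 and 1.02), E2f1, the Schlafen gene Slfn9 (0.77 and 0.66), Hells, Rfc3 and the neutrophil protease gene Ctsg (0.65 and 1.71). Ctsg rests on few cells and Hist1h2bc in part on 1. One DFO member gave 8.82% of the Hist1h2bc molecules of its set, and Ctsg was found in 33 vehicle and 36 DFO members, with 57.3% of its DFO molecules in 1 cell. After thinning, Ctsg was lower in DFO members than in the other DFO cells (log2 -0.05). Hist1h2bc and its neighbours are similar in sequence, and how reads were assigned among them is uncertain.

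Mitotic transcripts were lower in members in every case: all 53 genes of the mitosis list in both libraries, 44 of them past log2 -0.5 (medians -1.36 and -1.23). Summed over the list, members had 4828 CPM in vehicle (4797 to 4858) and 5668 CPM in DFO (5638 to 5699), the other cells 9945 and 10208 CPM, and mitotic cells 16687 and 16798 CPM. Prc1, which bundles the spindle midzone, stood at 20.5 CPM in vehicle members and 21.5 CPM in DFO members, against 163 and 171 CPM in the other cells (log2 -2.93 and -2.93). Kif11, the kinesin that separates spindle poles, stood at 11.0 CPM in vehicle members and 12.5 CPM in DFO members, against 83.2 and 82.2 CPM in the other cells (log2 -2.81 and -2.62), and the mitotic kinase Aurka at 8.12 CPM in vehicle members and 10.2 CPM in DFO members, against 72.3 and 73.9 CPM in the other cells (log2 -3.01 and -2.74). Ube2c, the conjugating enzyme of the anaphase-promoting complex, stood at 59.8 CPM in vehicle members and 77.3 CPM in DFO members, against 477 and 454 CPM in the other cells (log2 -2.97 and -2.54). Depdc1a, Kif14, Prr11 and Cenpf were also among the 10 genes with the largest deficit, beside Nusap1, which bundles spindle microtubules, at 10.6 CPM in vehicle members and 18.1 CPM in DFO members, against 118 and 112 CPM in the other cells (log2 -3.35 and -2.57).

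Mki67, a marker of cycling cells, was also low, at 83.5 CPM in vehicle members and 93.4 CPM in DFO members, against 321 and 303 CPM in the other cells (log2 -1.93 and -1.69). A Mki67 molecule was nonetheless found in 48.1% of vehicle and 49.0% of DFO members at 10000 UMIs, against 79.7% and 80.2% of other cells and 98.3% and 97.5% of mitotic cells. Without thinning the members' shares were 70.5% and 70.0%. Other clustered histone genes followed the rule's 3: of 14 that entered, 13 were lower in members in both libraries (medians -1.25 and -1.07) and Hist1h2bc alone was higher. Hist1h1e, a linker histone gene, stood at 22.1 CPM in vehicle members and 21.5 CPM in DFO members, against 113 and 100.2 CPM in the other cells (log2 -2.29 and -2.17). With the histone genes left out of the score, the medians of this list were only -0.276 in vehicle and -0.194 in DFO. The size of the gap thus depended largely on the histone side of the rule.

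**Figure D3:**
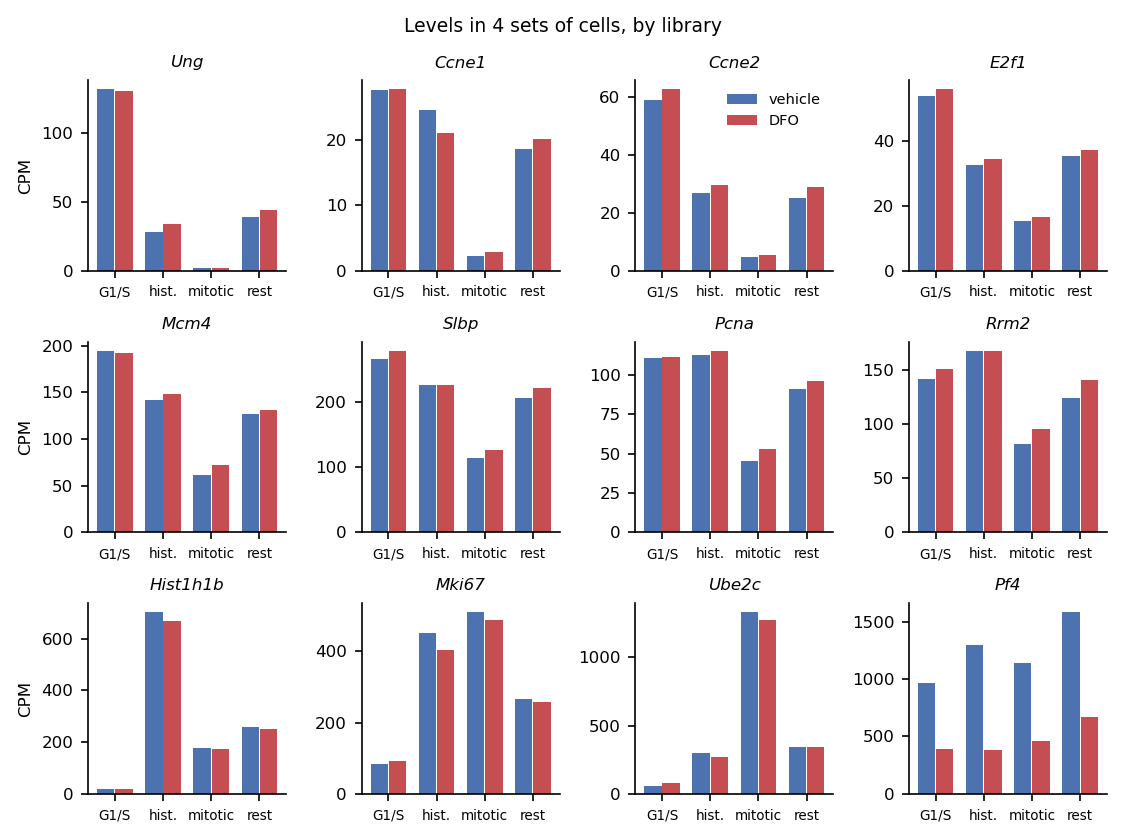
Bars give the CPM of 12 genes (vertical axes, each from 0) in the G1/S set, the histone-rich cells (hist.), the mitotic cells and the rest, for vehicle (blue) and DFO (red), 1 library each and so without error bars. Ung, Ccne2, E2f1, Mcm4 and Slbp are highest in the G1/S set, Pcna and Rrm2 in the histone-rich cells, and Ube2c and Mki67 in the mitotic cells, while Pf4 separates the libraries in every set.

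These differences were about as large at equal depth. After thinning to 10000 UMIs the median log2 difference of the licensing list was 0.470 in vehicle and 0.347 in DFO and that of the mitosis list -1.33 and -1.09. Within cells of 15000 to 45000 UMIs they were 0.451 and 0.400, and -1.36 and -1.30. With the 6 early genes alone as the score, medians were 0.414 in vehicle and 0.335 in DFO for origin firing, 0.380 and 0.318 for the fork, 0.342 and 0.297 for nucleotide supply, and 0.379 and 0.284 for the drivers, each larger than with the histone genes. The number of genes higher in the set was 18 after thinning and 68 when the 6 early genes alone chose the cells.

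Levels were also read along the whole score. Cells were divided into 10 bins of equal size by the pooled score, numbered from the lowest, of which bin 10 is the G1/S set by definition. The early and histone genes make up the score, so their course is a description of the rule. The summed level of the 6 early genes was 349 CPM in vehicle and 375 in DFO in bin 1, 531 and 576 in bin 5, 431 and 469 in bin 7, 664 and 668 in bin 9, and 895 and 885 in the set. That of the 3 histone genes had no bend, from 849 and 843 CPM in bin 1 through 70.4 and 85.4 in bin 7 to 25.01 and 22.7. Ccne1, which the score does not use, had 2 high points, 23.9 and 25.9 CPM in bin 5 and 27.6 and 27.7 in the set, with 13.1 and 14.6 between them in bin 7. Rrm2 was at 148 and 153 CPM in bin 4, 104 and 125 in bin 7 and 143 and 151 in the set.

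Summed mitosis transcripts were lowest in the set in both libraries and nearly level through the middle of the score. They stood at 12711 and 12728 CPM in bin 1, 9117 and 9378 in bin 5, 9482 and 10137 in bin 7, 6539 and 7407 in bin 9 and 4828 and 5668 in the set. The largest steps between neighbouring bins were the last 2, from bin 8 to bin 10, over which licensing transcripts went from 1137 and 1179.7 to 1468 and 1494 CPM. The median UMIs per cell went from 33572 and 32186 in bin 3 to 23768 and 23685 in bin 7 and 23049 and 22697 in the set, so depth moves with the score, and its part in the levels along the bins was not tested.

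**Figure D4:**
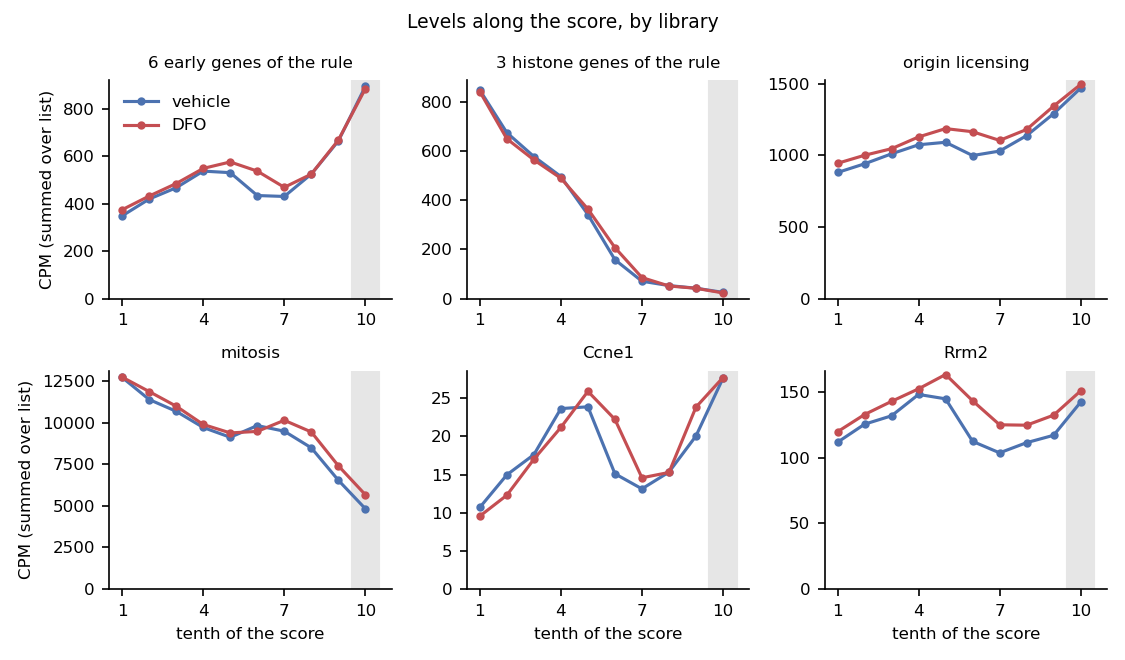
Panels show CPM (vertical axes, each from 0, summed over the list where a list is named) in each of the 10 bins of the pooled score (horizontal axes), with vehicle in blue and DFO in red, and the grey band marks the G1/S set. The histone genes go down through every bin, whereas the early genes, licensing, Ccne1 and Rrm2 dip near bin 7, and mitosis transcripts are lowest in the set, at 4828 and 5668 CPM.

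Members of both libraries were also divided into 4 bins of equal size by score. The share with no molecule of the 3 histone genes, which the score itself sets, was 48.8% in the lowest and 82.8% in the highest bin in vehicle, and 47.8% and 81.5% in DFO. Among genes outside the score, E2f1 went from 48.3 to 62.8 CPM in vehicle and from 49.3 to 64.4 in DFO, and summed mitosis transcripts from 5119.6 to 4619.7 and from 6092 to 5088 CPM. Ccne1 had 28.2 and 27.9 CPM in the lowest bin and 30.7 and 31.6 in the highest. Cell by cell, the summed licensing level had a 10th percentile of 1012, a median of 1459 and a 90th percentile of 1887 CPM in vehicle members, and of 1039, 1482 and 1938 CPM in DFO members. The matching values in the other cells were 519, 1012 and 1602, and 602, 1102 and 1677 CPM, so both ranges overlap widely.

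Members carried the stem cell markers of the sort at levels close to those of the other cells. Of 17 stem cell markers 11 were higher and 6 lower in both libraries (medians 0.163 and 0.180, none past 0.5; after thinning 0.106 and 0.0245), and their summed level was 973 and 981 CPM in members and 901 and 929 CPM in the other cells. Ly6a, which encodes the sort marker Sca-1, stood at 103 CPM in vehicle members and 129 CPM in DFO members, against 82.3 and 109.6 CPM in the other cells (log2 0.32 and 0.23), and Kit, the stem cell factor receptor, at 43.0 CPM in vehicle members and 45.8 CPM in DFO members, against 34.6 and 40.3 CPM in the other cells (log2 0.31 and 0.18). Slamf1, which encodes the sort marker CD150, was at 14.2 and 10.4 CPM in members. Cd34 stood at 173 CPM in vehicle members and 172 CPM in DFO members, against 147 and 149 CPM in the other cells (log2 0.24 and 0.21).

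Markers of other blood lineages were present in members too. Of 10 megakaryocyte markers that entered, 9 were lower in members in both libraries (medians -0.254 and -0.280), with a summed level of 1657 and 934 CPM against 2219.6 and 1172. Depth moves with this gap: within cells of 15000 to 45000 UMIs the medians were -0.0246 and -0.143. Erythroid markers summed to 930.1 and 932 CPM in members, mostly Hbb-bt and Car2, with Tspo2 at 0 in both libraries. Neutrophil and monocyte markers summed to 243 and 260.2 CPM, macrophage or dendritic ones to 89.9 and 78.3, stromal or endothelial ones to 51.7 and 47.5, lymphoid ones to 11.8 and 11.3 and mast cell or basophil ones to 11.6 and 6.91 CPM. In vehicle members S100a8, Cd79a, Fcer1a, Cma1 and Col1a1 were at 0, and in DFO members Cma1 was. Their part in the differences above was not tested.

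Growth programs were next compared between members and other cells. Of 85 ribosomal protein genes 74 were higher in members in both libraries, by medians of only 0.0467 and 0.0403. Of 22 targets of MYC, mostly genes of ribosome building, 20 were lower (medians -0.0768 and -0.0877), as were 10 of 14 targets of the stress factor ATF4 (medians -0.160 and -0.108). With the 6 early genes alone as the score the MYC medians were 0.0469 and 0.0191 and the ATF4 medians 0.0259 and 0.00561, all on the other side of 0. The ribosomal protein medians were then -0.00152 and 0.00186, and the vehicle median of the glycolysis genes given next was -0.0204. The median of glycolysis genes was 0.0190 in vehicle and 0.0171 in DFO, and that of cholesterol synthesis genes 0.0121 and -0.0553.

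With the rule as given, the share of cells at the G1/S boundary was nearly the same in both libraries. It was 9.715% of vehicle cells (exact 95% Clopper-Pearson interval 9.101 to 10.36) and 10.25% of DFO cells (9.66 to 10.87), a difference of 0.5365 percentage points (95% Newcombe interval -0.3295 to 1.398). With the rule applied to cells thinned to 10000 UMIs the shares were 9.728% in vehicle and 10.25% in DFO. Under the alternatives the difference ran from 0.01731 points with Hist1h2ae left out of the score to 1.207 points with the 6 early genes alone. Its size thus moved with the histone side of the rule. They were 9.619% in vehicle and 10.09% in DFO among cells called female by Xist and Y-linked transcripts, and 9.902% in vehicle and 10.41% in DFO among cells called male. Of cells with transcripts of both sexes, which may be 2 cells in 1 droplet, 4.739% and 5.97% were members. The share of histone-rich cells was 10.27% in vehicle and 9.765% in DFO (difference -0.5019, -1.371 to 0.3623), and that of mitotic cells 10.44% in vehicle and 9.612% in DFO (-0.8264, -1.696 to 0.0384). With the rules as given, all 3 intervals include 0 at the level of counting error, which leaves out the variation between cultures.

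The share differed more with depth than between libraries. With the cells in 4 bins of equal size by UMIs, it was 14.33% in vehicle and 16.25% in DFO in the lowest, in the next 18.01% in vehicle and 16.96% in DFO, in the third 6.076% in vehicle and 5.113% in DFO and in the highest 1.417% in vehicle and 1.861% in DFO. Across 4 bins of summed stem cell markers it went only from 8.824% in vehicle and 9.568% in DFO in the lowest to 11.33% in vehicle and 11.5% in DFO in the highest. Across 4 bins of summed megakaryocyte markers it was 8.661% in vehicle and 10.01% in DFO, 10.46% in vehicle and 10.49% in DFO, 11.09% in vehicle and 11.37% in DFO and 8.93% in vehicle and 8.627% in DFO, from the lowest to the highest.

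Inside the set, DFO members had much less of the megakaryocyte transcripts than vehicle members, and more of several mitotic transcripts. Their level of the genes of S phase entry was similar, which the shared score cut in part fixes. Of 7455 genes at 10 CPM or more in members of at least 1 library, 13 (0.174%) were higher in DFO by log2 0.5 or more and 43 (0.577%) lower. At log2 1 there were 1 (0.0134%) and 5 (0.0671%). In the other cells the counts at 0.5 were 2 higher (0.0267%) and 42 lower (0.562%) of 7479, and at 1 they were 0 and 6 (0.0802%). The median over all genes was 0.0171 in members (SD 0.156) and 0.0207 in other cells (SD 0.123). Of all genes, 55.4% were higher in DFO in members and 58.5% in other cells, the background for the counts of higher and lower genes below. The set holds fewer molecules, so counting error is larger there, and its part in these counts was not tested. With a pseudocount of 10, which draws every low gene toward 0 whatever the source of its difference, 3 genes were higher and 19 lower in DFO members.

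The 6 early genes of the rule, which it holds high in both libraries, were split inside the set: 2 were higher and 4 lower in DFO (median -0.0200). The largest difference among them was that of Cdc6, at 58.5 CPM in vehicle members and 64.5 CPM in DFO members (log2 0.14). Licensing genes outside the rule had a median of 0.0294, with 8 higher and 3 lower, fork genes -0.0110 (12 and 14), the drivers of S phase entry 0.0303 (9 and 4) and its brakes -0.0936 (4 and 9). No gene of these lists was past log2 0.5. In the other cells all 6 early genes were higher in DFO (median 0.0939), as were all 11 licensing genes (0.0646). Fork genes there were 22 higher and 4 lower (0.0704), drivers 10 and 3 (0.0816) and brakes 7 and 6 (0.0149). Members of both libraries passed the same score cut, so similar levels of such genes inside the set are in part fixed by the rule. E2f1 was at 53.9 CPM in vehicle members and 56.0 CPM in DFO members (log2 0.05) and Ccne1 at 27.6 CPM in vehicle members and 27.7 CPM in DFO members (log2 0.00).

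Enzymes and carriers of iron were next compared, since the treatment binds iron. Rrm2 was at 143 CPM in vehicle members and 151 CPM in DFO members (log2 0.08), and 124 and 139 CPM in the other cells (log2 0.16). Of 14 iron-dependent enzymes of replication and repair 10 were higher and 4 lower in DFO members (median 0.0243), and none was past 0.5. Dna2, an iron-dependent nuclease and helicase of the fork, was at 47.3 CPM in vehicle members and 56.9 CPM in DFO members (log2 0.26), and 35.98 and 41.1 CPM in the other cells (log2 0.19). Alkbh2 was at 16.9 CPM in vehicle members and 13.6 CPM in DFO members (log2 -0.30), and 7.02 and 6.75 CPM in the other cells (log2 -0.05). Of 17 iron handling genes 11 were higher and 6 lower (median 0.0384), also with none past 0.5. Over all genes 55.4% were higher in DFO members. Tfrc, the transferrin receptor that brings iron into the cell, was at 60.4 CPM in vehicle members and 72.6 CPM in DFO members (log2 0.26), and 57.5 and 67.3 CPM in the other cells (log2 0.22), with counting intervals in members of 57.0 to 63.9 and 69.2 to 76.1 CPM that do not overlap. The ferritin heavy chain gene Fth1 was at 3406 CPM in vehicle members and 3359.8 CPM in DFO members (log2 -0.02), and 3248 and 3236 CPM in the other cells (log2 -0.01).

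Megakaryocyte markers gave the largest median difference of the lists named here. All 10 were lower in DFO members, 7 of them past log2 -0.5 (median -0.806), and the counts were the same in the other cells (median -0.738). Pf4, a chemokine stored in platelets, was at 963 CPM in vehicle members and 393 CPM in DFO members (log2 -1.29), and 1488 and 610.0 CPM in the other cells (log2 -1.29). Treml1, a platelet receptor, was at 17.7 CPM in vehicle members and 6.39 CPM in DFO members (log2 -1.34), and 24.4 and 8.14 CPM in the other cells (log2 -1.47), and Cavin2, of the platelet membrane, at 11.7 CPM in vehicle members and 4.63 CPM in DFO members (log2 -1.17), and 15.4 and 8.92 CPM in the other cells (log2 -0.72). The platelet glycoprotein gene Gp9 was at 34.8 CPM in vehicle members and 19.2 CPM in DFO members (log2 -0.83), and 36.5 and 19.9 CPM in the other cells (log2 -0.84). At 10000 UMIs, 75.9% of vehicle and 61.7% of DFO members held a Pf4 molecule, and 76.7% and 63.3% of other cells did. Without thinning the members' shares were 90.0% and 76.7%. The size varied with the cells taken. Pf4 was at log2 -0.67 in female and -1.58 in male members, and the median of the list was -0.499 after thinning, -0.682 in female and -0.854 in male members. A lower sum cannot tell fewer marker-rich cells from less RNA in each: the 90th percentile of the summed markers per member was 3788 CPM in vehicle and 1872 in DFO, and the medians were 732 and 556.

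Other genes among the 10 lowest in DFO members were Csrp3, a muscle LIM protein gene, at 10.2 CPM in vehicle members and 3.35 CPM in DFO members (log2 -1.36), the calcium-binding protein gene Tesc at 13.9 CPM in vehicle members and 5.11 CPM in DFO members (log2 -1.29), the leukotriene enzyme gene Alox5 at 25.4 CPM in vehicle members and 12.2 CPM in DFO members (log2 -0.999), and Apoe, the lipid carrier, at 32.5 CPM in vehicle members and 17.6 CPM in DFO members (log2 -0.85). Rapsn and Col18a1 completed the list, with log2 -0.84 and -0.81. Each of these 6 was lower in the other cells too, with log2 from -1.11 to -0.44. Gata1, the shared factor of the erythroid and megakaryocyte lineages, was at 20.9 CPM in vehicle members and 12.1 CPM in DFO members (log2 -0.74), and 24.2 and 15.1 CPM in the other cells (log2 -0.65).

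Mitotic transcripts, low in members of either library, were less low in DFO members. Of 53 mitosis genes 46 were higher and 7 lower in DFO members than in vehicle members (median 0.165), against 29 and 24 in the other cells (median 0.0174). Nusap1 was at 10.6 CPM in vehicle members and 18.1 CPM in DFO members (log2 0.71), and 118 and 112 CPM in the other cells (log2 -0.07), with counting intervals in members of 9.27 to 12.2 and 16.4 to 19.9 CPM. Cdc20, the activator of the anaphase-promoting complex, was at 92.6 CPM in vehicle members and 125 CPM in DFO members (log2 0.43), and 219 and 229 CPM in the other cells (log2 0.07), and the mitotic kinase Plk1 at 12.4 CPM in vehicle members and 17.4 CPM in DFO members (log2 0.45), and 83.3 and 84.3 CPM in the other cells (log2 0.02). Birc5, of the complex that corrects chromosome attachment, was at 140.4 CPM in vehicle members and 189 CPM in DFO members (log2 0.43), and 362 and 389 CPM in the other cells (log2 0.10), and Tubb4b, a tubulin, at 408 CPM in vehicle members and 543 CPM in DFO members (log2 0.41), and 785 and 854 CPM in the other cells (log2 0.12). Ckap2l, a spindle protein gene, went the other way, at 25.01 CPM in vehicle members and 14.2 CPM in DFO members (log2 -0.77), and 90.6 and 63.9 CPM in the other cells (log2 -0.50). Kif20a and Racgap1, which act in cell division and are outside the list, were among the 10 highest genes in DFO members, with log2 0.67 and 0.55.

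Members with a mitotic level above the middle of all cells were more frequent in DFO. Summed over the list, the 10th percentile, median and 90th percentile per cell were 2421, 4158 and 7594 CPM in vehicle members and 2804, 4877 and 8657 CPM in DFO members. The share of members above the median of all cells, 8015 CPM, was 7.57% in vehicle (64 of 846, exact interval 5.87 to 9.56) and 14.2% in DFO (143 of 1010, 12.1 to 16.5), a difference of 6.59 percentage points (3.77 to 9.38, counting error only). It was 6.04 points after thinning, 6.77 in female and 5.31 in male cells, and 6.08 without likely doublets. It depended on the histone side of the rule. With the 6 early genes alone as the score, the shares were 3.68% and 5.19%, their difference was 1.51 points (-0.428 to 3.38), the median of the list was -0.00555, and Nusap1 was lower in DFO (log2 -0.22).

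**Figure D5:**
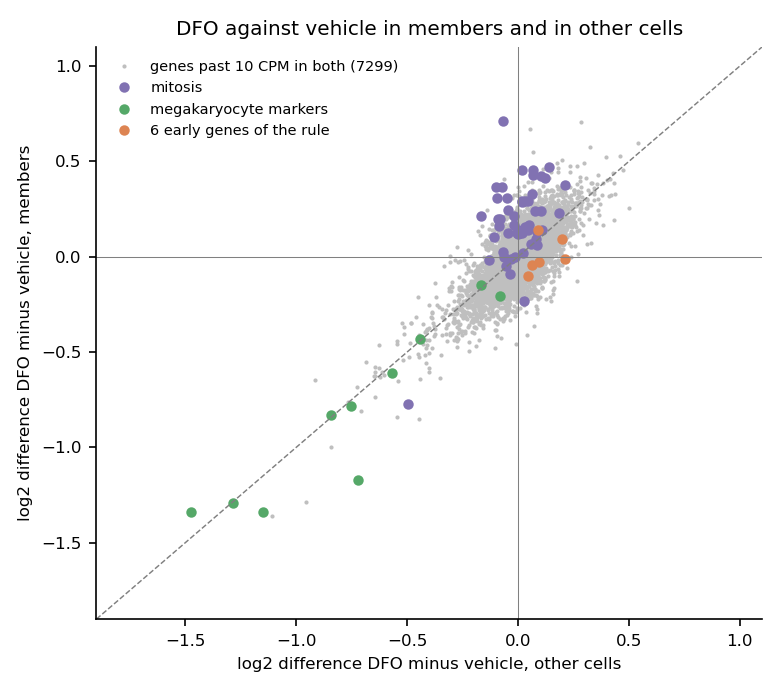
Each grey point is 1 of 7299 genes that reached 10 CPM in members and in other cells, placed by its log2 difference between DFO and vehicle in the other cells (horizontal axis) and in members (vertical axis), and the dashed line marks equal differences. Megakaryocyte markers (green) are low on both axes, most mitosis genes (purple) lie above the line, and 5 of the 6 early genes of the rule (orange) lie below it, with Cdc6 above.

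The metabolic lists had the same direction in members as in the other cells. Glycolysis genes were lower in DFO members in 14 of 15 cases (median -0.182, other cells -0.141), led by Aldoc, an aldolase, at 17.7 CPM in vehicle members and 11.1 CPM in DFO members (log2 -0.63). Cholesterol synthesis genes were lower in 20 of 21 (median -0.197, other cells -0.145), among them Cyp51, an enzyme with an iron-holding haem, at 61.1 CPM in vehicle members and 47.1 CPM in DFO members (log2 -0.37). Of 20 hypoxia response genes 14 were lower and 6 higher (median -0.145, other cells -0.120), with the glucose carrier Slc2a3 at 79.2 CPM in vehicle members and 58.3 CPM in DFO members (log2 -0.43) and the oxygen sensor Egln1 at 71.7 CPM in vehicle members and 77.8 CPM in DFO members (log2 0.12). MYC targets were higher in 16 of 22 cases (median 0.108), ATF4 targets in 11 of 14 (0.115), and all 13 mitochondrially encoded transcripts (0.173), with mt-Nd3 at 669 CPM in vehicle members and 1013 CPM in DFO members (log2 0.60). Ribosomal protein genes were lower in 60 of 85 (-0.0770). The p53 targets were split 5 to 5 (median 0.00250), with Cdkn1a at 66.2 CPM in vehicle members and 59.5 CPM in DFO members (log2 -0.15).

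The highest single difference in DFO members came from 1 cell. Elane, a protease of neutrophil granules, had log2 3.65, and 98.7% of its molecules in DFO members were in that cell. Mpo (log2 0.90) and Ctsg (0.55) likewise had 54.0% and 57.3% of their DFO molecules in a single cell. Without the cells holding 100 or more molecules of these genes and Prtn3, an alternative chosen after seeing the data that left out 2 vehicle and 2 DFO members, Elane was at log2 -0.15, Ctsg at -0.47 and Mpo at 0.39, and 8 genes in place of 13 were higher by 0.5. The other genes among the 10 highest were Lmo1, a LIM domain gene, at 9.71 CPM in vehicle members and 16.5 CPM in DFO members (log2 0.71), the antisense gene Rab26os (log2 0.57), which cannot be told apart from reads of the gene opposite where counting ignored strand, and Usp50 (0.53).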

How the data were processed

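The 2 single-cell libraries analysed were 1 of vehicle and 1 of DFO cells, with depth per cell as given in the text. The deposited values are natural log values of normalized molecules per cell. The submitters' processing notes name FastQC 0.11.9, Trim Galore 0.6.5, Cell Ranger 3.0.2 and mm10, and per the submitters' processing notes no role is stated for each. The sources used here do not give how the authors filtered cells, nor their settings. Whole molecules were recovered from the steps of the deposited natural log values in every cell, and 100% of values came out whole within 0.05.

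The score used the deposited values. Recovered molecules were summed per library and cell set and given as CPM, and log2 differences used a pseudocount of 1. For members against other cells, genes needed 10 CPM in at least 1 of these sets in both libraries. For DFO against vehicle they needed it in at least 1 library. List members needed a mean of 5 CPM over members and other cells of both libraries. Intervals are at 95%, exact for counts and shares and by Newcombe for differences of shares, and cover counting error only. No test across genes was run, because each group has 1 library. The calculation was tested on simulated data. Members and gene lists were chosen with earlier results of these data known. Genes named are the 10 highest and 10 lowest in each comparison (for members against other cells, by the smaller difference of both libraries) and members of the lists, and a few of these are not reported here. No doublet caller was run, and 1 alternative leaves out cells with transcripts of both sexes and the cells with most UMIs. Other alternatives changed the share of cells taken, the genes of the score, depth, scaling, pseudocount, minimum, sex and mitochondrial share. Promoters are from RefSeq (GRCm38.p6), and Ccne2, Gins2, Hist1h1a, Hist1h1b and Hist1h2ae were not matched. Python 3.11.15, numpy 2.4.6, scipy 1.17.1, pandas 2.3.3, statsmodels 0.14.6 and matplotlib 3.10.9 were used.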

Additional observations from a re-analysis of the deposited data

Results flagged for a closer look

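Inside the G1/S set 11 genes were higher in DFO than in vehicle while the same genes were lower in DFO among the other cells, and 1 gene had the reverse pattern, with counting intervals of the libraries that did not overlap on either side. Whether the difference between sets exceeds the variation between cultures was not tested. Of 346 genes looked at, 52 were on the mitosis list, and 9 of the 12 genes with opposite signs were among these. The genes looked at were those named above and those of most lists, so some were picked for their DFO difference in members. Opposite signs were not counted over all genes, so whether these counts exceed that background is not known. Nusap1 had a log2 difference of 0.71 in members and -0.07 in other cells, Ube2c 0.37 and -0.07, and Hmmr, a spindle and hyaluronan-binding protein gene, 0.37 and -0.10. Cenpf had 0.31 and -0.10, Tpx2, a spindle assembly factor gene, 0.31 and -0.05, and Ckap5, of microtubule growth, 0.25 and -0.04. Cenpa, the centromeric histone gene, had 0.20 and -0.09, Mki67 0.16 and -0.08, and Ccnb2, which encodes cyclin B2, 0.10 and -0.11. Pole2 was the reverse, at -0.29 in members and 0.08 in other cells. Mpo had 0.90 and -0.40 and Ctsg 0.55 and -0.52, and 1 DFO member held most of the DFO members' molecules of each. With the 6 early genes alone as the score, the difference in members was -0.22 for Nusap1, -0.28 for Ube2c, -0.15 for Hmmr, -0.10 for Cenpf, -0.12 for Tpx2, -0.02 for Ckap5 and -0.0072 for Mki67, and 0.023 for Pole2, so members no longer had the sign given above for these 8 genes. Cenpa was at 0.025 and Ccnb2 at 0.090 there.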

How the results depend on the processing

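No paired analysis was possible because each group has 1 library. Under 26 alternatives, 134 summary values stayed within their counting interval or 1.5 times the count and 23 moved. Of the values for single genes, lists and mitotic shares 4211 stayed within their interval and 976 moved. A sign opposite to that reported, or a value of 0, was found 192 times, over 60 of 227 results, such as the DFO minus vehicle medians of fork and checkpoint genes, and 17 of these concerned a difference past log2 0.5. The share of cells follows the threshold, at 4.8% of vehicle and 5.177% of DFO cells for the top 5%, and 19.77% and 20.2% for the top 20%. A threshold set within each library gives no share. The 33 genes higher in the set were 68 without the histone genes in the score, 18 after thinning and 15 with a pseudocount of 10. The 13 genes higher in DFO members were 26 for the top 5%, 3 for the top 20%, 4 without the histone genes, 36 after thinning, 54 in male cells, 20, 7 and 8 with Ung, Mcm5 or Hist1h1b left out, 3 with a pseudocount of 10, 20 and 4 with a minimum of 5 or 20 CPM, and 8 without the granule cells. The 43 lower genes were 104 in male cells, 19 with a pseudocount of 10, and 71 and 23 with a minimum of 5 or 20 CPM. The cause was not tested.

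Those 17 are these. Without the histone genes in the score, members minus other cells was -0.1305 for the neutrophil and monocyte list in DFO, -0.0008706 and -0.1305 for Ctsg and 0.1408 and 0.227 for Hist1h1a in vehicle and DFO, and DFO minus vehicle in members was -0.4528 for Ctsg, -0.01647 for Elane, -0.8561 for Mpo and -0.2196 for Nusap1. After thinning, Ctsg was at -0.04598 for members minus other cells in DFO and at -0.5941 for DFO minus vehicle, and Elane at 0. In female cells Ctsg was at -0.3529, Elane at -0.1391 and Mpo at -0.1634. Without the granule cells, chosen after seeing the data, Ctsg was at -0.4746 and Elane at -0.146.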
